A study of Rattus norvegicus with 12 samples.

Results

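The nuclear genes of the mitochondrial respiratory chain were described in rat lung. Genes were taken as members when their symbol began with Nduf (complex I), Sdha to Sdhd (complex II), Uqcr (complex III), Cox4 to Cox8 (complex IV) or Atp5 (complex V, the ATP synthase), which also takes in assembly factors named after complexes I and II. Of 14737 genes with a symbol and a probe on the arrays, 82 were members. Of the 11146 genes that were detected, 81 were members. A gene counted as detected if some group had a probe that stood well above background on its 3 arrays, and the most intense probe stood for the gene. The detected members were 33 subunits and 5 assembly factors of complex I, 4 subunits and 2 assembly factors of complex II, 7 subunits of complex III, 15 subunits of complex IV, and 14 subunits and 1 inhibitor of complex V. All 81 were well above background on every array, and Cox8c was the member that was not detected.

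Lung RNA of 12 male rats was hybridised to single-colour Agilent arrays, 3 rats in each of 4 groups. All rats were Sprague-Dawley rats aged 8 to 12 weeks, and the RNA came from the left upper lobe. The control group breathed air and received saline. The CS+LPS group, a rat model of chronic obstructive pulmonary disease, was exposed to cigarette smoke up to day 30 and received lipopolysaccharide (LPS) into the trachea on days 5 and 19. The CS+LPS+NaHS group had the same exposure and injections of sodium hydrosulfide, a donor of hydrogen sulfide. The CS+LPS+PPG group had the exposure and propargylglycine, an inhibitor of cystathionine gamma-lyase, one of the enzymes that form hydrogen sulfide. No array held unexposed rats given NaHS or PPG, so both agents were measured only on top of the exposure. Lungs were collected 24 h after the last smoke.

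The respiratory chain lies in the inner mitochondrial membrane. Complexes I and II pass electrons from NADH and succinate to ubiquinone, complex III hands them to cytochrome c, complex IV passes them to oxygen, and the ATP synthase uses the proton gradient built up on the way. Hydrogen sulfide feeds electrons into the same ubiquinone pool through Sqor when it is scarce and blocks complex IV when it is abundant. Some complex IV subunits have a second form that is made mainly in heart and skeletal muscle. The subunits encoded in the mitochondrial genome do not meet the name rule and are not described.

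Signals are given as log2 values scaled to the 75th percentile of each array, so a difference of 1 is a 2-fold change. Before scaling, that percentile lay between 857 and 2229 signal units. The lowest value was that of control replicate 3, and the next lowest was 1430. Over detected probes, the highest correlation of control replicate 3 with any other array was 0.96. For every other array it was 0.99. Alveolar type 2 markers were detected in full, 7 of 7, with a summed log2 signal of 19.80 to 20.35 over the 12 arrays. The strongest of them, Sftpc, was highest on control replicate 3, at 19.39. The median deviation of these markers from their own means was -0.69 on that array and -0.13 to 0.13 on the others. Transcripts of heart muscle were also measured, 8 of 11 markers, and their summed log2 signal spanned 12.81 to 16.61 in the control group and 13.73 to 15.78 in CS+LPS. Its span was 13.43 to 15.87 in the NaHS rats and 15.44 to 16.21 in the PPG rats. Ucp1, the uncoupling protein of brown fat, had a log2 signal of 13.24 on control replicate 3 and at most 5.93 on the other arrays. The 3 CS+LPS arrays and control replicate 3 lay on slide 2, while the other 8 arrays lay on slide 1. Slide and exposure can therefore be told apart in comparisons with CS+LPS only as far as control replicate 3 allows. In bulk tissue, fewer cells of a type and less RNA per cell cannot be told apart, and this holds for every difference below.

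Most members had a slightly higher signal in the exposed lungs than in control lungs, and they varied together from array to array. On each array the median deviation of the 81 members from their own means was computed. It was -0.16, -0.14 and -0.30 in control replicates 1, 2 and 3. In CS+LPS it was -0.01, 0.18 and 0.05, with NaHS 0.05, -0.10 and -0.17, and with PPG 0.11, 0.15 and 0.38. The PPG arrays lay above all control arrays and all NaHS arrays, and PPG replicate 3 stood highest. The group means of these medians were -0.20 ± 0.09 in control, 0.07 ± 0.10 in CS+LPS, -0.07 ± 0.11 with NaHS and 0.21 ± 0.15 with PPG (SD, n = 3 each). Over the same arrays the median of all detected genes stayed between -0.02 and 0.03.

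**Figure D1:**
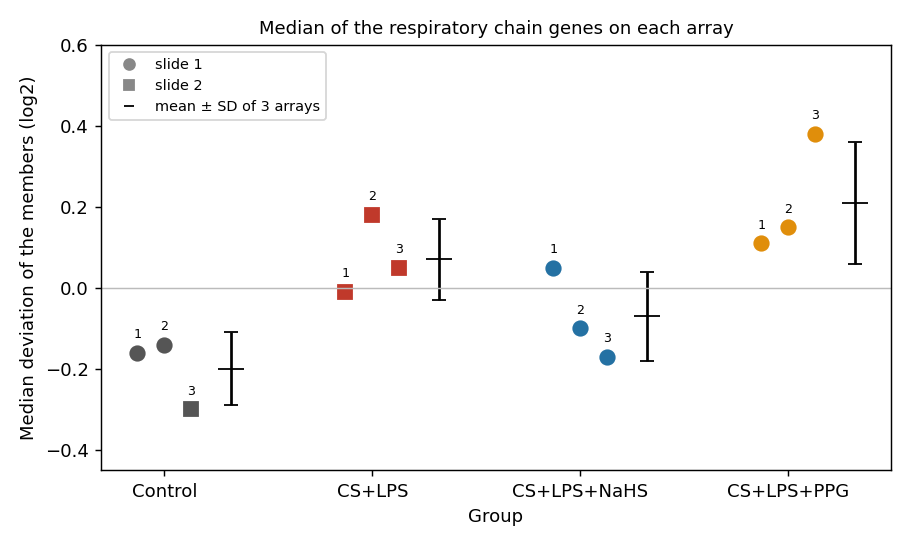
Median deviation of the 81 respiratory chain genes (log2 signal minus each gene's mean over the arrays) on each of the 12 arrays, by group, with the replicate number above each point. Circles and squares mark slides 1 and 2, and the bar beside each group is its mean ± SD of 3 arrays. The PPG arrays lie at 0.11 to 0.38, above the control arrays at -0.30 to -0.14.

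Control replicate 3 and PPG replicate 3 carried the extremes of most members. Control replicate 3 was the lowest of the 12 arrays for 48 of the 81 members, and PPG replicate 3 was the highest for 61. The mean was lowest in the control group for 61 members and highest in the PPG group for 73, and 53 members had the order control, NaHS, CS+LPS, PPG from low to high. The profile of a member over the 12 arrays had a median r of 0.85 with the median profile of the other members, and 51 members reached an r of at least 0.8. Points of this correlation share array, slide and scaling, so it is given as a description. Ndufc2, an accessory subunit of complex I, was the most alike (r = 0.99), followed by Atp5mk and Cox7b (0.98 each). Uqcrq (-0.60) and Cox6b2 (-0.12), the testis form of a complex IV subunit, ran against the rest, and Ndufa10, Cox8b and Cox6a2 had an r of 0.09, 0.10 and 0.18.

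**Figure D2:**
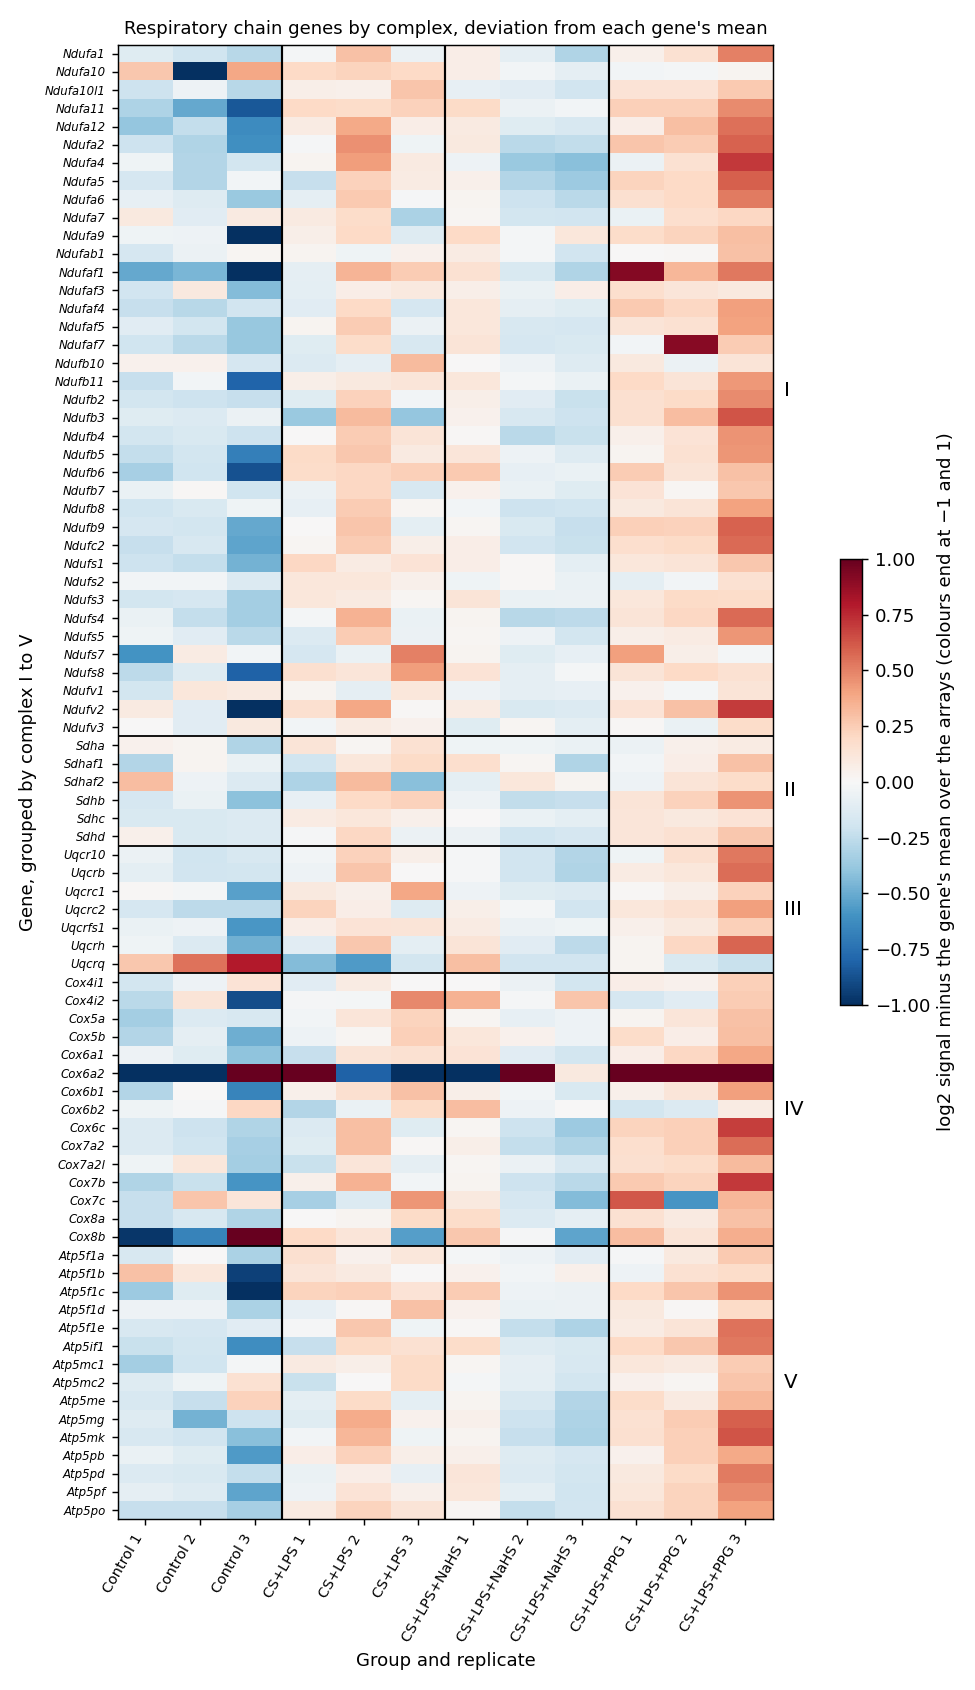
Heat map of the 81 members (rows, by complex I to V) over the 12 arrays (columns, by group and replicate). Colour is the log2 signal minus the gene's mean over the arrays, with colours ending at -1 and 1. Most rows are blue in the control columns, where control replicate 3 is the lowest array for 48 members, and red in the column of PPG replicate 3, the highest for 61.

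Compared with the control, the CS+LPS group had 74 of 81 members higher (background 50%), with a median difference of 0.27 on the log2 scale (1.21-fold), whereas the median of all detected genes was 0.00. At an adjusted p under 0.05 by limma, 1 member rose and 1 fell, or 1.23% of members each. These shares were close to those of all detected genes, 0.978% (higher) and 1.09% (lower). At an unadjusted p under 0.05, 25 members were higher (background 12.3%) and 1 was lower (background 11.9%). In 45 members all CS+LPS values lay above all control values, which was the case in 13.1% of detected genes, and in 1, Uqcrq, below them (background 11.5%). No member reached a fold of 2 with an unadjusted p under 0.05, the rule the study used (background 4.03%). Shares of all detected genes called without single arrays are not given here, so counts from such fits are no result about the members. The count of adjusted calls was between 0 and 6 when single arrays were left out. It was 0 without control replicate 3, without any 1 of the CS+LPS or PPG arrays, and without NaHS replicate 2 or 3, 1 without NaHS replicate 1, and 6 without control replicate 2. With slide as a block the median was 0.36, with 33 members called, and within slide 2 it was 0.36. Both values set CS+LPS against control replicate 3 alone, the array with the high Ucp1 signal, so they carry no control spread of their own and are no test of the groups. Summed macrophage markers (3 of 5 detected) also lay apart, at 12.02 to 12.92 in control and 13.66 to 14.28 in CS+LPS, and their part in the member differences was not tested.

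Ndufa11, an accessory subunit of the membrane arm of complex I, was the gene that rose. Its log2 signals were 11.73, 11.53 and 11.19 in the control group and 12.23, 12.22 and 12.27 in CS+LPS. The groups did not overlap, and the CS+LPS values differed by little among themselves. The difference was 0.76 (standard error 0.15, adjusted p = 0.0378 from limma). Ndufaf1, an assembly factor of complex I, was 0.83 higher (adjusted p = 0.0689), and Atp5f1c, the gamma subunit that turns within the ATP synthase, 0.75 higher (adjusted p = 0.0996 from limma). The control values of Atp5f1c, 12.79, 13.03 and 11.97, were spread by control replicate 3. The core subunits Ndufs1 and Ndufs8, which hold iron-sulfur clusters, were 0.45 and 0.63 higher (adjusted p = 0.0745 and 0.0818 from limma), whereas Ndufv1, which binds NADH, had the same mean of 14.09 in both groups.

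Uqcrq, a small subunit of complex III, was the member that fell. Its log2 signals were 10.15, 10.42 and 10.67 in control and 9.45, 9.31 and 9.70 in CS+LPS. With NaHS they were 10.18, 9.68 and 9.69 and with PPG 9.91, 9.73 and 9.66. All CS+LPS and PPG values lay below the lowest control value, and NaHS replicate 1 fell within the control range. The difference from control was -0.92 in CS+LPS (adjusted p = 0.0383), -0.56 with NaHS (adjusted p = 0.203) and -0.64 with PPG (adjusted p = 0.068, all from limma). The 6 other subunits of complex III were 0.22 to 0.36 higher in CS+LPS than in control, none with an adjusted p under 0.05.

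In the NaHS group, 62 members were higher than in control (background 51.6%) and 19 lower, with a median difference of 0.11 (1.08-fold). No member had an adjusted p under 0.05 from limma (background 0.108% higher and 0.0179% lower). At an unadjusted p, 7 were higher (8.64% of members, background 9.22%) and 1, Uqcrq, was lower (background 8.94%). The methods' t-test gave 3 higher and none lower at that level (background 12.2% in both directions together) and none after adjustment. The share of rises at an unadjusted p from limma was thus close to that of all genes, and the share of falls (1.23% of members) lay below it. In 17 members the NaHS values lay above all control values (21.0%, background 13.1%) and in none below them (background 13.2%). None met the study's rule (background 2.68%). The largest differences were those of Cox6a2 at 1.29 (standard error 1.39), Atp5f1c at 0.60 and Ndufa11 at 0.59, with adjusted p = 0.641, 0.245 and 0.141 from limma. Atp5f1c was at 11.97 on control replicate 3, below the 12.79 and 13.03 of control replicates 1 and 2. Without control replicate 3, so within slide 1, the median was 0.05.

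The PPG group stood farthest from control. Of the 81 members 79 were higher (background 50.1%), the median difference was 0.41 (1.33-fold), and the median of all detected genes was 0.00. In all, 9 members rose at an adjusted p under 0.05 by limma (11.1% of members, background 3.07%), and none fell (background 2.31%). At an unadjusted p under 0.05, 52 were higher (64.2%, background 16.1%) and 1, Uqcrq, was lower (background 13.6%). In 57 members every PPG value lay above every control value (70.4%, background 18.4%), and in Uqcrq below (background 16%). The adjusted p-values of the 9 lay between 0.0212 and 0.0498, close to the threshold, and their count depended on single arrays. It was 0 without any 1 of the PPG arrays, 2 without control replicate 1, without CS+LPS replicate 1 or 3, or without any 1 of the NaHS arrays, 3 without control replicate 3 and 14 without control replicate 2. The median was 0.33 to 0.49 in these fits, and within slide 1 it was 0.38 with 5 members called. Shares of all detected genes called in these fits are not given here, so the counts are no result about the members. Summed neutrophil markers (6 of 6 detected) lay at 12.83 to 14.19 in control and 14.59 to 15.09 with PPG, summed macrophage markers at 13.53 to 13.96 with PPG, and their part in the member differences was not tested.

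**Figure D3:**
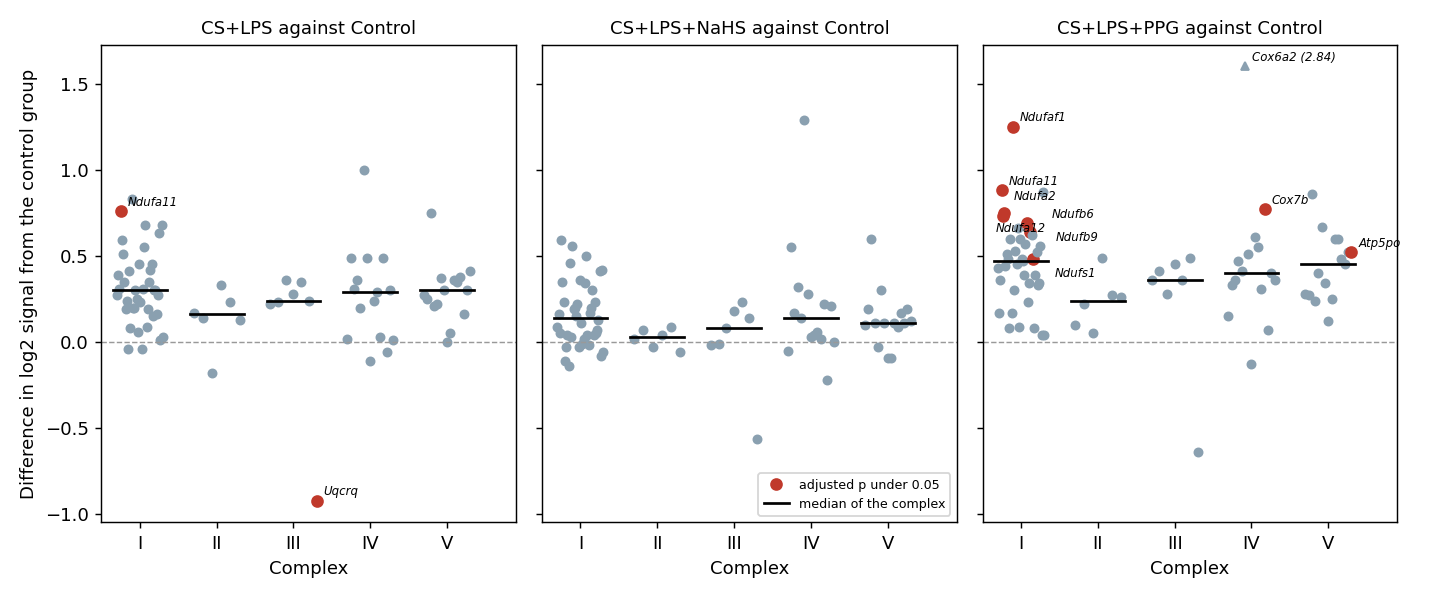
Difference in log2 signal from the control group for each member, by complex, in the CS+LPS, NaHS and PPG groups. Red points have an adjusted p under 0.05 from limma, black lines are medians of a complex, and the triangle marks Cox6a2 at 2.84, beyond the axis. The median of complex I is 0.30, 0.14 and 0.47 in the 3 panels.

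Complex I held 7 of the 9. All 38 of its members were higher with PPG, with a median of 0.47 and a range of 0.04 to 1.25. Ndufaf1 had log2 signals of 6.78, 6.83 and 6.28 in control and 8.21, 7.62 and 7.82 with PPG, without overlap. Its difference of 1.25 (2.38-fold, standard error 0.21, adjusted p = 0.0212 from limma) was the only one of a member that met the study's rule (background 4.56%). Ndufa11 came next, with 12.28, 12.28 and 12.51 against the control values above, a difference of 0.88 (adjusted p = 0.0223 from limma). Ndufa2, Ndufa12, Ndufb6 and Ndufb9, all accessory subunits, rose by 0.75, 0.73, 0.69 and 0.64, and the core subunit Ndufs1 by 0.48 (adjusted p = 0.042 to 0.0498 from limma). Ndufv2, the partner of Ndufv1 in the NADH-binding module, was 0.87 higher (adjusted p = 0.125), but its control values of 14.34, 14.14 and 12.78 were spread by control replicate 3. Ndufv1 and Ndufv3 of the same module differed by 0.04 each (adjusted p = 0.851 and 0.831 from limma). Ndufa4, which carries a complex I name but is found with complex IV, was 0.44 higher (adjusted p = 0.18 from limma). A less intense probe of Ndufaf4, another assembly factor, was 0.96 higher with PPG (adjusted p = 0.0198) where the more intense probe gave 0.53 (adjusted p = 0.05, above the threshold before rounding), and one of Ndufb4 0.59 (adjusted p = 0.044) where the more intense gave 0.39 (adjusted p = 0.106, all from limma).

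Complex II, succinate dehydrogenase, had the smallest median of the 5 complexes with PPG. There its 6 members were 0.05 to 0.49 higher, with a median of 0.24, and none had an adjusted p under 0.05 from limma. The flavoprotein subunit Sdha differed by 0.10 (adjusted p = 0.619) and the iron-sulfur subunit Sdhb by 0.49 (adjusted p = 0.0747). Sdhc, a membrane anchor, had control values of 12.37, 12.37 and 12.38 and PPG values of 12.64, 12.62 and 12.67. These groups did not overlap and the difference was 0.27 (adjusted p = 0.114 from limma). The other anchor, Sdhd, was 0.26 higher (adjusted p = 0.18). Whether complex II differed from the other complexes was not tested.

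In complex III, 6 of 7 members were higher with PPG, by 0.28 to 0.49, and each of these 6 had no overlap with control (background 18.4%). Some gaps were very small. Uqcrc1 was at 12.63 after rounding on both control replicate 1 and PPG replicate 1, and Uqcr10 was at 16.44 and 16.47 on these arrays. The Rieske iron-sulfur protein Uqcrfs1 was 0.36 higher, and the core proteins Uqcrc1 and Uqcrc2 0.28 and 0.45 (adjusted p = 0.142, 0.27 and 0.0737 from limma).

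In complex IV, 14 of 15 members were higher with PPG, with a median of 0.40. Cox7b, a small membrane subunit, was the member that rose, with log2 signals of 13.57, 13.66 and 13.28 in control and 14.13, 14.09 and 14.59 with PPG. The difference was 0.77 (adjusted p = 0.0428 from limma), and in CS+LPS it was 0.49, with values of 13.93, 14.22 and 13.84. Cox5a and Cox5b were 0.36 and 0.47 higher with PPG (adjusted p = 0.0985 and 0.0705), while Cox4i1, the general form of subunit 4, differed by 0.15 (adjusted p = 0.454 from limma). Cox4i2, another form of subunit 4 that is also made in lung, had control values of 12.41, 12.81 and 11.79, which overlapped with every exposed group. It was 0.49, 0.55 and 0.33 higher in CS+LPS, NaHS and PPG (adjusted p = 0.239, 0.294 and 0.394 from limma).

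All 15 members of complex V were higher with PPG, by 0.12 to 0.86, with a median of 0.45. Atp5po, the stalk subunit that confers sensitivity to oligomycin, rose, with control values of 14.99, 14.99 and 14.89 and PPG values of 15.37, 15.44 and 15.62 (difference 0.52, adjusted p = 0.0434 from limma). Atp5if1, which holds back ATP hydrolysis by the synthase, was 0.67 higher (adjusted p = 0.054) and Atp5f1c 0.86 higher (adjusted p = 0.0579). The catalytic subunit Atp5f1b and its partner Atp5f1a differed by 0.27 and 0.28 (adjusted p = 0.50 and 0.169 from limma). Atp5f1b had a log2 signal of 11.61 on control replicate 3 and 12.50 to 12.83 on the other 11 arrays. Atp5f1c was also lowest on control replicate 3, at 11.97.

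Against the CS+LPS group, no member passed an adjusted p under 0.05 from limma in either treatment by its most intense probe. A less intense probe of Ndufaf4 passed with PPG, at 0.79 (adjusted p = 0.0344 from limma), and its other 3 probes did not, at 0.32, 0.32 and 0.62. With NaHS the median difference was -0.15 and 7 of 81 members were higher (background 45.2%) and 74 lower, 2 of these at an unadjusted p (background 1.93%) and none of the 7 (background 6%). In 13 members the NaHS values lay below all CS+LPS values (background 8.62%), and in none above them (background 10.3%). These 2 were Ndufa4 at -0.46 and Atp5po at -0.28 (adjusted p = 0.493 and 0.47). The methods' t-test gave 8 lower and none higher at an unadjusted p (background 11.5% in both directions together). With PPG the median was 0.13 and 74 members were higher (background 48.7%), 2 at an unadjusted p (background 6.1%) and 6 without overlap (7.41%, background 8.94%). None was lower at an unadjusted p (background 3.59%), and 1, Ndufa10 at -0.22, was lower without overlap (background 9.82%). None met the study's rule with NaHS (background 1.21%) or with PPG (background 1.62%). These 2 were Ndufb3 at 0.51 and Ndufaf4 at 0.32 (adjusted p = 0.392 and 0.43 from limma). Adjusted calls made up 0.413% and 0.368% of all detected genes as rises, and 0.00897% and 0.0179% as falls, with NaHS and with PPG. With slide as a block the median with NaHS was -0.34 and with PPG -0.02, both of which rest on control replicate 3. Without PPG replicate 3 the median with PPG was 0.05.

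The NaHS and PPG groups lay on the same slide. The NaHS group was lower in 78 of 81 members and higher in 3 (background 50.5%), with a median of -0.29 (0.82-fold). No member had an adjusted p under 0.05 from limma, nor had any detected gene (background 0% in either direction). At an unadjusted p, 27 members were lower (33.3%, background 4.46%) and none was higher (background 3.75%). The methods' t-test gave 24 lower and none higher (background 15.2% in both directions together). In 42 members all NaHS values lay below all PPG values (51.9%, background 13.4%), and in none above them (background 12.9%). No member met the study's rule (background 0.583%). All NaHS values also lay below all PPG values for 52 of 77 cytosolic ribosome genes, and above them for 0. For mitochondrial ribosome genes this was 36 of 65 below and 1 above, and for proteasome genes 15 of 37 below and 1 above. Cox6c, a small subunit of complex IV, had log2 signals of 15.96, 15.74 and 15.59 with NaHS and 16.16, 16.18 and 16.63 with PPG, a difference of -0.57 (adjusted p = 0.566 from limma). Ndufaf1 and Cox7b differed by -0.69 and -0.55 (adjusted p = 0.566 each). Without PPG replicate 3 the median was -0.20, and with quantile normalization it was -0.15. Summed white fat markers (4 of 6 detected) lay at 12.18 to 12.83 with NaHS and 13.07 to 13.76 with PPG, beside 12.02 to 12.63 in CS+LPS and 11.78 to 13.79 in control. They thus set the PPG arrays apart from the NaHS and CS+LPS arrays, and their part in the member differences was not tested. Comparisons that share a group are not independent, and the NaHS and PPG differences from control use the same 3 control arrays.

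Cox6a2, the heart and skeletal muscle form of subunit 6a, had log2 signals of 7.49, 7.48 and 12.94 in control, 12.10, 9.77 and 9.03 in CS+LPS, 8.85, 12.23 and 10.69 with NaHS and 12.32, 11.66 and 12.45 with PPG. The values overlapped between all 4 groups, and their pooled SD of 1.97 was the widest of the 81 members, for which the median was 0.18. The PPG mean was 2.84 above control (standard error 1.39, adjusted p = 0.198 from limma). Myl7, the light chain of atrial myosin, was at 5.36, 5.03 and 14.84 in control, 14.16, 11.45 and 10.56 in CS+LPS, 3.82, 14.26 and 12.50 with NaHS and 14.76, 13.82 and 14.76 with PPG. Over the 12 arrays Cox6a2 had an r of 0.93 with Myl7, the highest of the members. Cox8b, the muscle form of subunit 8, had an r of 0.55, close to Atp5mc1 (0.54) and Ndufv3 (0.52), which are no muscle forms. Cox8b was at 13.36 on control replicate 3, the array with the high Ucp1 signal, and 11.03 to 12.36 elsewhere. The general forms Cox6a1 and Cox8a were 0.41 and 0.40 higher with PPG (adjusted p = 0.125 and 0.0793 from limma).

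**Figure D4:**
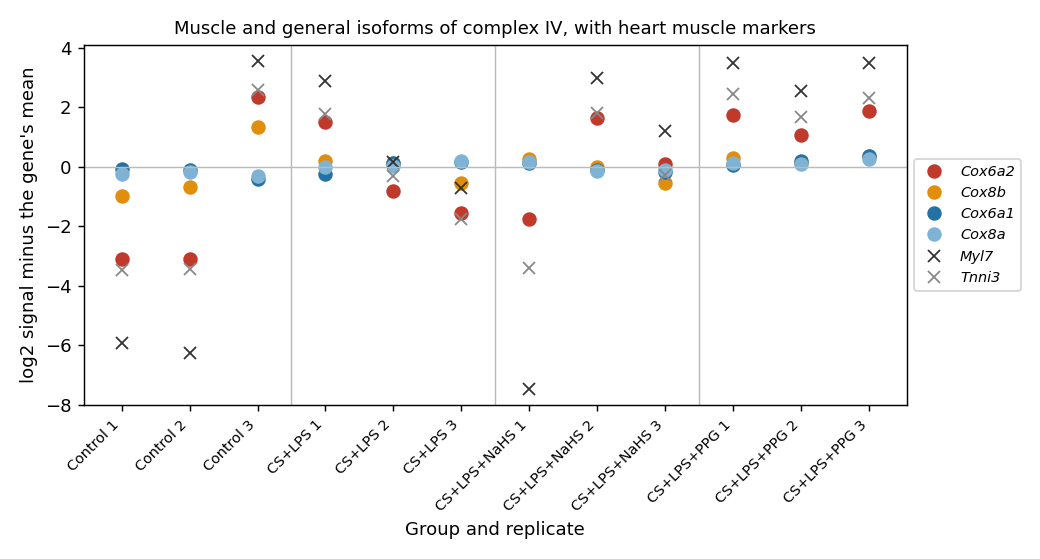
Log2 signal minus the gene's mean over the 12 arrays for the muscle forms Cox6a2 and Cox8b, the general forms Cox6a1 and Cox8a (circles), and the heart muscle markers Myl7 and Tnni3 (crosses), by group and replicate. Cox6a2 is high where Myl7 is high, on control replicate 3 and all 3 PPG arrays, and low on control replicates 1 and 2.

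Heart transcripts and the member median are given side by side, and the part of the heart transcripts in the member differences was not tested. Control replicate 3 had the highest Myl7 signal of the 12 arrays and a member median of -0.30. Without Cox6a2 and Cox8b the median difference of PPG from control was 0.41, over 79 members. With the mean level of the heart muscle markers as a covariate it was 0.51, with 44 members called, and for CS+LPS 0.30 with 25 called. The share of all detected genes called in that fit is not given here, so these counts are no result about the members. This covariate was added after the heart transcripts had been seen.

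Genes that work beside the complexes were counted from fixed lists. Of 23 detected assembly factors of complexes III, IV and V, 4 rose with PPG against control (background 3.07%) and none fell (background 2.31%), with a median of 0.23. Coa7, a complex IV assembly factor, rose most, from 7.42, 7.42 and 6.85 in control to 8.20, 8.58 and 8.39 with PPG (difference 1.16, adjusted p = 0.0208 from limma). Cox16 and Uqcc2, which help to build complexes IV and III, rose by 0.79 and 0.57, and Tmem70, which helps to build the ATP synthase, by 0.76 (adjusted p = 0.0434, 0.0487 and 0.0421 from limma). None of 18 electron carriers and entry points to ubiquinone passed, with a median of 0.12. Among them cytochrome c (Cycs) was 0.38 higher, the sulfide oxidising enzyme Sqor 0.36 and Etfdh, which passes electrons from fatty acid oxidation to ubiquinone, 0.53 (adjusted p = 0.169, 0.257 and 0.113 from limma). None of 14 genes of the TCA cycle (median 0.17), of 9 carriers and uncouplers (median 0.26) or of 9 regulators (median 0.00) passed either. At an unadjusted p under 0.05 (background 16.1% higher and 13.6% lower), 6 electron carriers and entry points were higher and 2 lower. Of the TCA cycle genes 2 were higher and 1 lower, of the carriers and uncouplers 3 and 1, and of the regulators 1 and 2. Ppargc1a, a coactivator of mitochondrial gene expression, was at 6.67, 6.44 and 7.11 in control, 6.42, 5.29 and 5.92 in CS+LPS, 6.92, 7.13 and 7.14 with NaHS and 6.87, 5.95 and 6.55 with PPG. It was lower in CS+LPS than in control by 0.86, and higher with NaHS than in CS+LPS by 1.18. Neither pair of groups overlapped (adjusted p = 0.128 and 0.141 from limma). Most members were higher in CS+LPS than in control and lower with NaHS than in CS+LPS. A link between Ppargc1a and the members was not tested.

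Other large families of housekeeping genes, chosen after the member values had been seen, gave medians of the same order with PPG against control. In CS+LPS against control the cytosolic ribosome was an exception, with a median near 0. With PPG against control the median was 0.42 for 65 proteins of the mitochondrial ribosome, 0.42 for 37 of the proteasome and 0.26 for 77 of the cytosolic ribosome, beside 0.41 for the respiratory chain. In CS+LPS against control these medians were 0.29, 0.30 and 0.08, beside 0.27. In NaHS against PPG they were -0.25, -0.20 and -0.32, beside -0.29. On PPG replicate 3 they were 0.34, 0.37 and 0.37, beside 0.38. On control replicate 3 they were -0.48, -0.57 and -0.14, beside -0.30. Whether the respiratory chain differed from these families was not tested.

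**Figure D5:**
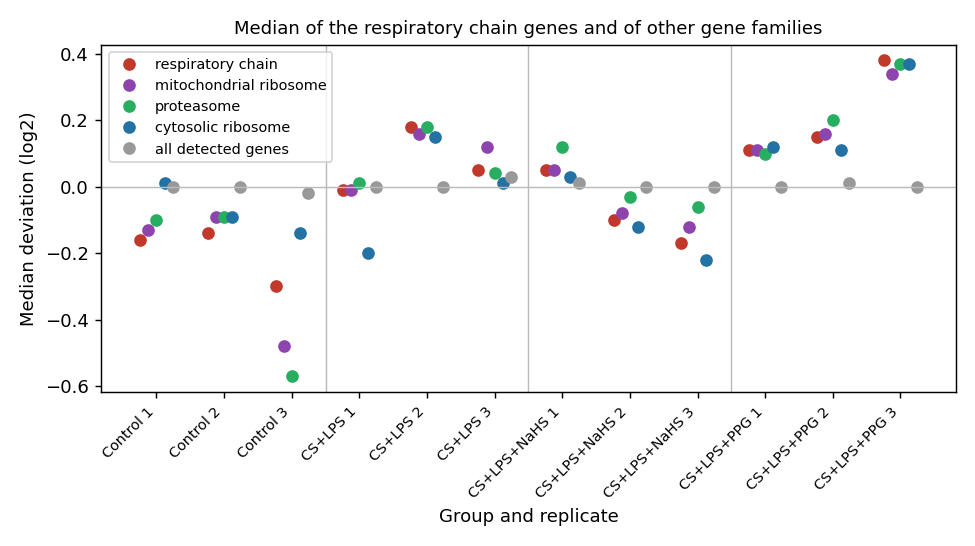
Median deviation (log2 signal minus each gene's mean over the arrays) of 5 gene sets on each array, by group and replicate. The respiratory chain, the mitochondrial ribosome and the proteasome are low on control replicate 3, at -0.30, -0.48 and -0.57, all 4 families are high on PPG replicate 3, at 0.34 to 0.38, and all detected genes stay between -0.02 and 0.03.

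The promoters of the members were read because the members varied together. RefSeq promoters (GRCr8 build, 250 bases before to 50 after the start) were matched by symbol for 73 of the 81 detected members. They were searched on both strands for 3 motifs of factors known for mitochondrial genes. GCGCATGC, a core of the site of NRF1, was in 10 member promoters (13.7%, against 2.47% of all 33469 promoters and 4.52% of those of detected genes). CCGGAAG, a core of the site of GABPA, was in 23 (31.5%, against 8.75% and 16.3%), and AAGATGGC, a core of the site of YY1, in 12 (16.4%, against 3.17% and 4.81%). In the 250 bases before the start alone, the YY1 motif was in 2 member promoters (2.74%, against 2.08% of those of detected genes), so most of its matches reached past the start. The NRF1 and GABPA motifs were in 10 and 22 there. No match of 1 motif overlapped a match of another in a member promoter. The median GC content of the windows was 57.3% in members and 51.7% in all genes. The median difference of PPG from control was 0.46 in the 34 members with a motif and 0.39 in the 39 without.

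The 250 bases before the start are shown for 3 members that rose and for Uqcrq, which fell, 5′ to 3′ on the gene's strand with the motif matches in capitals. They lie at chr9:1637364-1637613 (plus strand) for Ndufa11, chr3:127104021-127104270 (minus strand) for Ndufaf1, chrX:75148786-75149035 (plus strand) for Cox7b and chr10:38089979-38090228 (minus strand) for Uqcrq in GRCr8. The capitals in Ndufa11 are 4 overlapping matches of the NRF1 motif, and those in Ndufaf1 and Uqcrq are 1 match each of the GABPA motif (Ndufaf1 has another match 19 bases after the start, outside the stretch shown), so the gene that fell held a motif as well. Cox7b has no match of the 3 motifs in this window.
Ndufa11: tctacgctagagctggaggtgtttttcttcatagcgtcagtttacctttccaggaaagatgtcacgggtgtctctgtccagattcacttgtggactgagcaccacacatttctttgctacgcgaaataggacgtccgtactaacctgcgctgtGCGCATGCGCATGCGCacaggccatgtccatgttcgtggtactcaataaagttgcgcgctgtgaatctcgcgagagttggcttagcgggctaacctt
Ndufaf1: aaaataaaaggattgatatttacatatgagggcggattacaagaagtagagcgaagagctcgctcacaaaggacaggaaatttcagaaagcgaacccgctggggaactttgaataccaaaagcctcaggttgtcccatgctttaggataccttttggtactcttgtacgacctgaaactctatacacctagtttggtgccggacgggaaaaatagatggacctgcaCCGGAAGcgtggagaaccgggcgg
Cox7b: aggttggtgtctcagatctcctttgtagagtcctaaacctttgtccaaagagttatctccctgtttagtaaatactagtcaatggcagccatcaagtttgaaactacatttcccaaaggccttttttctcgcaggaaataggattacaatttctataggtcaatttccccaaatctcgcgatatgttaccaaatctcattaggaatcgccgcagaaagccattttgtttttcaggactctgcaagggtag
Uqcrq: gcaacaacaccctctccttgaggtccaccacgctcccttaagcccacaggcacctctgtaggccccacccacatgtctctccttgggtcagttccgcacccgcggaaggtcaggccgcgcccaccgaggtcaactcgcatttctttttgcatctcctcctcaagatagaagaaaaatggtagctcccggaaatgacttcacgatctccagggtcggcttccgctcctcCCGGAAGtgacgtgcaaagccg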

How the data were processed

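Per the labels and the methods of the study, total RNA of the left upper lung lobe was hybridised to single-colour arrays and scanned with Agilent Feature Extraction 10.7. NaHS was given at 14 μmol/kg and PPG at 37.5 mg/kg. The deposited files hold the processed intensity of each spot, already background-corrected by the authors' scanner software and not normalized between arrays, with flags for background and outliers. In the files of control replicates 1 and 2 and NaHS replicate 1 all intensities carry 3 significant digits. No spot was saturated. The deposited lists of the authors' own comparisons hold fold changes and p-values and were not used.

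Spots of a probe were averaged as log2 values without outlier spots, and each array was scaled to its 75th percentile over probes. That percentile was taken over probes after both this and a percentile over spots had been computed, and the second is given among the alternatives. The linear model of limma 3.58.1 (R 4.3.3) was fitted to 21239 detected probes of 30367 on all 12 arrays, and two-sided p-values were adjusted over these probes (Benjamini-Hochberg). Symbols came from RefSeq accessions through a table of assembly GRCr8. Of the 122 protein-coding genes of that table that meet the name rule, 82 had a probe, and 111 pseudogenes share these names, so transcripts of near copies may bind the same probes. Detected members had 100 probes in all, and 15 members had more than 1. Called members and a choice of the larger differences were named, with some isoform pairs, core subunits and Atp5if1. Not every one of the largest rises and falls was named in each comparison. With 3 rats a group, the smallest p of an exact permutation test is 0.1. The labels do not say that the rats were otherwise handled apart, so p-values measure the spread between these samples, and the number of arrays limits the precision. The members and gene lists were chosen with earlier results of these data known. The fit was tested on simulated data with known changes.

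Alternatives tried for the scaling were quantile normalization and a percentile taken only over probes detected everywhere, and for the background normexp on the median signal (offset 50). Further fits kept outlier spots, had slide as a block or the replicate number as a block, dropped the filter or required detection on all 12 arrays, used only the 2 groups compared, averaged all probes of a gene, used the methods' t-test, or left out each array.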

Additional observations from a re-analysis of the deposited data

How the results depend on the processing

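The median difference of the 81 members kept its sign in all 6 comparisons under every alternative run except slide as a block for PPG against CS+LPS. When each array was left out in turn it was 0.22 to 0.31 for CS+LPS, 0.05 to 0.17 for NaHS and 0.33 to 0.49 for PPG against control, -0.19 to -0.10 for NaHS and 0.05 to 0.20 for PPG against CS+LPS, and -0.36 to -0.20 for NaHS against PPG. With quantile normalization it was 0.28 for PPG against control and -0.15 for NaHS against PPG. With slide as a block it was -0.34 for NaHS and -0.02 for PPG against CS+LPS, with 12 and 7 members called. The counts of called members were far less stable. Shares of all detected genes called under these alternatives are not given here, so the counts are no result about the members. For CS+LPS against control (2 called) the count was 1 with quantile normalization, 4 with normexp, which moved the median of all probes from -0.04 to -0.14, 33 with slide as a block, 11 within 1 slide, 25 with the heart muscle covariate, and 0 without the filter, with only the 2 groups compared and with the methods' t-test. It was 0 to 6 with single arrays left out. For PPG against control (9 called) the count was 3 with slide as a block, 5 within 1 slide, 1 without the filter, 0 with only the 2 groups compared, 0 with the methods' t-test and 44 with the heart muscle covariate, and 0 to 14 with single arrays left out. Beyond these it was 6 with quantile normalization, 13 with normexp, 13 with the filter on all arrays, 10 with outlier spots kept, 12 with the percentile over spots and 8 with the mean of probes. For NaHS against control (0 called) it was 4 with the heart muscle covariate. The within-slide values, the heart muscle covariate and the percentile over spots were chosen after seeing the data. With the replicate number as a block 0 members were called against control in CS+LPS, 0 with NaHS and 0 with PPG. The labels give no pairing, and deviations of same-numbered arrays had an r of -0.31 to 0.14, so the numbers were not taken to pair the samples. Of single genes, Cox8b changed sign for CS+LPS against control, to -1.44 with slide as a block and -1.44 within 1 slide, and to 2.16 for NaHS against CS+LPS with slide as a block. Atp5f1b changed sign for PPG against CS+LPS, to -1.11 with slide as a block. These values, like the counts of 33 and 11 for CS+LPS against control, rest on control replicate 3 as the 1 control array on slide 2, assumed to vary like the other arrays, so no p is given for them, and the cause was not tested. Of the 9 calls with PPG, that of Ndufaf1 was kept in 20 of 26 alternatives and that of Ndufa11 in 19, but those of Cox7b and Ndufa12 in 10, Ndufa2 in 9, Atp5po in 8 and Ndufb6, Ndufb9 and Ndufs1 in 7. With CS+LPS those of Ndufa11 and Uqcrq were kept in 12.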
